A study of Mus musculus with 18 samples.

Results

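The genes followed here encode the proteins of the mitochondrial ribosome, in the tibialis anterior (TA) muscle of mice with and without the clock activator BMAL1 in skeletal muscle and with or without ligation of a femoral artery. Members were the protein-coding genes whose mouse symbol starts with Mrpl (large subunit) or Mrps (small subunit) and whose normalised count averaged at least 10 over the 18 libraries. There were 77 of them among the 20922 genes of the table, 48 Mrpl and 29 Mrps. All 77 protein-coding genes with such a symbol in the table passed that mean, and 4 pseudogenes were left out. Mrpl33 was not analysed here.

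The animals were Bmal1fx/fx mice crossed to ACTA-rtTA-TRE-Cre mice, in which an actin promoter drives the doxycycline-dependent activator that switches on Cre, so the deletion is aimed at muscle fibres and not at the other cells of the muscle. Doxycycline was given by gavage, the femoral artery of 1 limb was tied off a week after the last dose, and TA muscles of the tied limb (ligated) and of the opposite limb (intact) were taken on day 36. The intact muscles therefore came from operated animals. Libraries titled WT (5 intact, 4 ligated) are the controls and libraries titled BKO (5 intact, 4 ligated) are the muscle Bmal1 knockout. The labels state neither age nor sex, nor which libraries share an animal. Each p-value here therefore reflects only how much these libraries scatter, which may be technical.

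The libraries held 14089381 to 25629204 recovered reads, and each member had between 21 and 1575 reads in a library. The mitochondrial large rRNA gene mt-Rnr2 took 31.9% to 34.3% of the reads in WT intact, 38.1% to 45.3% in WT ligated, 33.6% to 36.1% in BKO intact and 40.9% to 55.5% in BKO ligated libraries. The labels give the Cre genotype of controls and knockouts the other way round from their names, so groups were taken from the titles. The gene total of Bmal1 (Arntl), which includes exons outside any deleted part and so does not check the labels, was 41.3 to 68.4 normalised counts in WT intact and 42.4 to 61.1 in BKO intact libraries. In ligated limbs it was 12.2 to 18.3 in WT and 63.8 to 82.0 in BKO, so the gene total was higher in the libraries labelled knockout, against their label. Dbp, a gene that BMAL1 activates, was 601 to 791 in WT intact and 178 to 233 in BKO intact, and 682 to 867 in WT ligated and 226 to 346 in BKO ligated. Muscle fibre markers (12 genes, among them Ckm and Acta1) summed to 1361054 to 1618078 normalised counts in WT intact, 1008105 to 1179879 in WT ligated, 1323537 to 1578065 in BKO intact and 1176596 to 1296353 in BKO ligated libraries. Of these 12 markers, 7 fell and 1 rose after ligation in WT, and 6 fell and 2 rose in BKO. Myh4 alone was at 546111 to 763530 in WT intact libraries, a large part of the sum. Of 10 adipocyte markers, none at 0 throughout a group, 10 rose after ligation in WT and 9 in BKO. Their sum was 2542 to 3300 in the intact limbs of both genotypes, 8154 to 11390 in WT ligated and 4277 to 8548 in BKO ligated libraries. Of 7 fibroblast markers 4 rose in each genotype, and their sum was 4647 to 6622 in the intact limbs of both, 13344 to 16726 in WT ligated and 10091 to 16180 in BKO ligated libraries. Of 6 endothelial markers 4 rose in WT and 5 in BKO, with sums of 2294 to 3155 in intact, 3346 to 4478 in WT ligated and 3753 to 5136 in BKO ligated libraries. Of 10 macrophage markers 6 rose and 1 fell in WT, and 1 rose and 1 fell in BKO. Their sum was 417 to 805 in the intact limbs of both genotypes, 1028 to 1291 in WT ligated and 562 to 913 in BKO ligated libraries. No fibroblast, endothelial or macrophage marker was at 0 throughout a group.

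Mitochondria keep a small genome that encodes a handful of respiratory chain subunits and the RNAs needed to translate them. These messages are read by a dedicated ribosome whose 2 rRNAs, from mt-Rnr1 and mt-Rnr2, are made in the mitochondrion, while all of its proteins are encoded in the nucleus, made in the cytosol and imported. Some of the proteins are relatives of bacterial ribosomal proteins and others occur only in mitochondrial ribosomes. Skeletal muscle has a large and adjustable demand for oxidative phosphorylation, and all 77 members had reads in every library here.

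Per kilobase of transcript, the mean level over the 18 libraries was highest for Mrpl42, at 1299 normalised counts per kb. Mrps21 followed at 896 and Mrpl30, a relative of a bacterial large subunit protein, at 553. Mrpl54 stood at 340 and Mrps36 at 336. The order differed between groups: in BKO ligated libraries Mrps21 (834) was above Mrpl42 (814), and in WT ligated libraries Mrpl54 (229) was below Mrps36 (355). The lowest levels were those of Mrps25, Mrps26 and Mrps35, with Mrps35 at 27.3 and Mrps25 at 25.9 normalised counts per kb.

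Promoters of 4 members are shown as examples of the groups described below: Mrps12 was higher in BKO intact muscle, Mrps18b and Mrps36 fell after ligation in BKO, and Mrpl53 rose after ligation in WT. Each runs from 250 bases before to 50 after the start of the gene, 5' to 3' on the strand of the gene, from RefSeq on GRCm38.p6. Capitals mark matches to GCGCATGC, the core read by the factor NRF1, or CCGGAAG, the core read by ETS factors such as GABPA, on either strand.
Mrps12, chr7:28741772-28742071, minus strand: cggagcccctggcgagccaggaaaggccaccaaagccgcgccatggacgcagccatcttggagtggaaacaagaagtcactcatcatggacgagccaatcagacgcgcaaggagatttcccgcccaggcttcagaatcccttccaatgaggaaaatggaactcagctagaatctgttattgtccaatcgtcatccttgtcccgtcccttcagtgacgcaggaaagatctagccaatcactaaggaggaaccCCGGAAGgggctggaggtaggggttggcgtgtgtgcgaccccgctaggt
Mrps18b, chr17:35916391-35916690, minus strand: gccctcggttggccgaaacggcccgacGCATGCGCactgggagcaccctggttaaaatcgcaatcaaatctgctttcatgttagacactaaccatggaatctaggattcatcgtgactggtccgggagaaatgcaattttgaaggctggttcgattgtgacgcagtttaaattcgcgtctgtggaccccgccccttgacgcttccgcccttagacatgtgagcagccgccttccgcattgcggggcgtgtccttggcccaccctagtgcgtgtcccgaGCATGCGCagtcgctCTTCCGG
Mrps36, chr13:100744610-100744909, minus strand: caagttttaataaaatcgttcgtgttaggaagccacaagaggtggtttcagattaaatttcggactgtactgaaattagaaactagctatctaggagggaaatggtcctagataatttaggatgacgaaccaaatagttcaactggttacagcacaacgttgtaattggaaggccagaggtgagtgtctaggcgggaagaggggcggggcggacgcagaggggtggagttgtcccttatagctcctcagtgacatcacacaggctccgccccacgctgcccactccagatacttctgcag
Mrpl53, chr6:83108858-83109157, plus strand: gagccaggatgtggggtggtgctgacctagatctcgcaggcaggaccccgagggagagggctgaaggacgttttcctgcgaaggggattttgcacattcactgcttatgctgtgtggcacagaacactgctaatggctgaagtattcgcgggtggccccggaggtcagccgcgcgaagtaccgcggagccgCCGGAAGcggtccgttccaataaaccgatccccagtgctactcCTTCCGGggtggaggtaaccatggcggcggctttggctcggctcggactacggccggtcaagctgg
Mrps12 and Mrpl53 hold the ETS core, Mrps18b holds both cores, and Mrps36 holds neither. Of the 68 members with a promoter in the table (9 had none), 25 (36.8%) held the ETS core, against 20.4% of the genes tested and 9.93% of all genes. The NRF1 core was in 7 (10.3%), against 6.03% and 3.05%, and the E-box CACGTG, which BMAL1 and its partner CLOCK bind, in 5 (7.35%), against 11.9% and 8.09%. By response, the ETS core was in 11 of 26 members higher in BKO intact muscle (42.3%) and in 15 of 41 that fell after ligation in BKO (36.6%). A gene counted if any of its listed promoters matched. The 68 members had 74 promoters, the 9173 genes tested 11809 and all 27025 genes 32851, so the shares are not strictly like for like. No motif contains another of the 3, and a match is a description, not a binding site.

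The members lie on 17 chromosomes, and 33 of 77 (42.9%) have a protein-coding gene on the other strand that starts within 1000 bases of their own start, against 16.2% of 11411 protein-coding genes tested. In 18 of 77 (23.4%) that start lies upstream, against 10.2%, and in the others it lies downstream, within the 5' part of the member. Of these 18 upstream neighbours 16 were tested, and 1 rose and 6 fell after ligation in BKO, while 3 were higher and none lower in BKO intact muscle. Of all genes tested, 22.1% rose and 25.1% fell after ligation in BKO, and 8.56% were higher and 9.75% lower in BKO intact muscle. Mrps12 shares such a region with Sars2, which charges tRNA with serine in the mitochondrion. Sars2 was 0.59 higher in BKO intact muscle (adjusted p = 0.00523) and fell by 0.61 after ligation in BKO (adjusted p = 0.00211), where Mrps12 changed by 0.53 and fell by 0.88. Other pairs differed in direction or call: Mitd1 rose by 1.00 after ligation in BKO (adjusted p = 0.0201) where its partner Mrpl30 was at -0.43, and Psma2 was 0.33 higher in BKO intact muscle (adjusted p = 0.00285) where Mrpl32 was at 0.045. These pairs were chosen after their values were seen. In 32 of 77 members an exon overlaps an exon of another gene, 28 on the other and 7 on the same strand. Of the members named in these results they are Mrpl3, Mrpl10, Mrpl12, Mrpl13, Mrpl18, Mrpl24, Mrpl27, Mrpl44, Mrpl46, Mrpl48, Mrpl51 and Mrpl53, and Mrps6, Mrps11, Mrps18b, Mrps18c, Mrps24, Mrps25, Mrps26, Mrps27 and Mrps30. Their reads could include those of the neighbour, and reads of Mrps36 and Mrpl48 could be split with their pseudogenes.

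Summed over all 77 members, the normalised counts of the WT intact libraries were 14708, 13309, 14800, 15246 and 15963, and those of the WT ligated libraries 13908, 12609, 13917 and 13974. The BKO intact libraries stood at 17563, 18161, 18269, 19345 and 17468, and the BKO ligated libraries at 12933, 11784, 13664 and 14266. All 5 BKO intact libraries lay above all the others, and the other 3 groups overlapped. Both subunits showed this layout: large subunit sums were 11661 to 12886 in BKO intact against 7846 to 10817 elsewhere, and small subunit sums 5631 to 6459 against 3938 to 5146. As a share of all reads, which does not depend on the size factors, members took 0.0766% ± 0.0071 (SD, n = 5) in WT intact, 0.0798% ± 0.00978 (n = 4) in WT ligated, 0.0967% ± 0.00257 (n = 5) in BKO intact and 0.0616% ± 0.0143 (n = 4) in BKO ligated libraries. This share does depend on the mt-Rnr2 reads. It was lowest in BKO ligated libraries 4 and 5 (0.0479% and 0.0522%), where mt-Rnr2 took 51.9% and 55.5% of the reads. From WT intact to WT ligated the mean share went up, while the mean summed count went down from 14805 to 13602. In bulk RNA, fewer cells of a type and less RNA per cell cannot be told apart, here and in each comparison that follows.

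**Figure D1:**
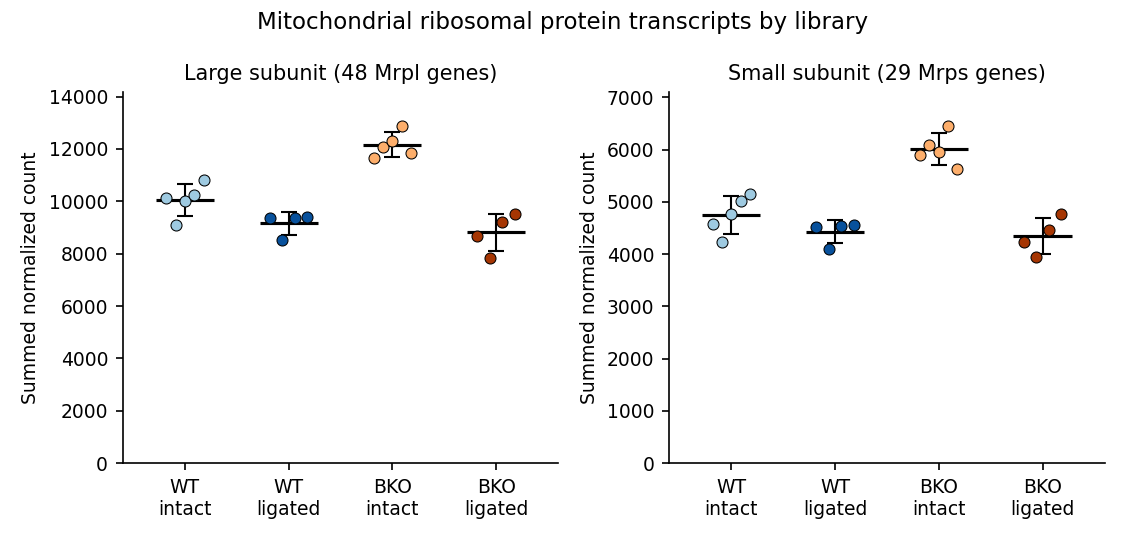
Summed normalized counts (y axes, linear, from 0) of the 48 large subunit genes (left) and the 29 small subunit genes (right) in the 4 groups. Points are libraries, horizontal lines group means and bars the SD; the 5 BKO intact libraries (11661 to 12886 on the left, 5631 to 6459 on the right) lie above all the others.

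The first comparison asked what ligation did to these transcripts in control muscle. In WT, 17 of the 77 members fell and 4 rose in the ligated limb. Among all 12262 genes tested 21.1% fell and 18.7% rose, against 22.1% and 5.19% of the members. The median log2 fold change of the members was -0.06, with -0.09 for the large and 0.04 for the small subunit. A decrease was called for 10 of 48 large and 7 of 29 small subunit genes.

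The decreases with the smallest p-values were spread over both subunits. Mrpl54, a large subunit protein with no bacterial relative, was at 236, 239, 224, 221 and 221 normalised counts in WT intact and at 134, 119, 151 and 150 in WT ligated libraries. The groups did not overlap, and Mrpl54 fell by 0.72 on the log2 scale (SE 0.09, limma adjusted p = 3.76e-06). Mrpl32, whose precursor is cut by the m-AAA protease of the inner membrane before the protein joins the large subunit, was at 178, 148, 186, 160 and 186 in WT intact and at 106, 106, 108 and 109.5 in WT ligated libraries. All 4 ligated libraries lay well below the intact ones and within a few counts of each other, and Mrpl32 fell by 0.67 (SE 0.09, limma adjusted p = 9.66e-06). Mrps18b, 1 of 3 relatives of a single bacterial small subunit protein, was at 201, 246, 281, 284 and 320 in WT intact and at 166, 136, 158 and 137 in WT ligated libraries. Again no ligated library reached the intact range, and the change was -0.82 (SE 0.13, limma adjusted p = 4.06e-05), the largest decrease of any member in WT. An exon of Mrps18b overlaps Gm16279 on the other strand, and the sources used here do not give the strand setting of the counting.

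The other members named by the rule fell by less. In the small subunit they were Mrps15 (-0.45), Mrps28 (-0.55) and Mrps2 (-0.55), all relatives of bacterial proteins, and in the large subunit Mrpl57 (-0.59) and Mrpl42 (-0.58), with adjusted p from 0.000904 to 0.00233. Mrps12, a protein of the decoding centre, fell by 0.38 (adjusted p = 0.0169). Mrpl2, a protein near the peptidyl transferase centre, fell by 0.34 (adjusted p = 0.0353), and its adjusted p was up to 0.0973 with 1 WT library left out. Without WT ligated library 4, the one with the lowest summed level, 11 members rather than 17 were called lower. Mrps12 then no longer passed the test, with an adjusted p of 0.0747.

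The 4 members that rose in WT were Mrps14, Mrpl53, Mrpl17 and Mrps16. Mrps14, a relative of a bacterial protein of the small subunit head, was at 78.7, 84.1, 122, 130 and 88.3 normalised counts in WT intact and at 138.5, 168, 164.5 and 169 in WT ligated libraries. Every ligated library was above every intact one, and the rise of 0.69 (SE 0.15, limma adjusted p = 0.001) was the largest of any member. Mrpl53, a large subunit protein with no bacterial relative, was at 128, 154, 143, 149 and 134.5 in WT intact and at 210, 194, 188 and 212.5 in WT ligated libraries. These groups did not overlap either, and Mrpl53 rose by 0.50 (SE 0.09, limma adjusted p = 0.000200). An exon of Mrpl53 overlaps Gm42688 on the same strand and Ccdc142os on the other, so its reads cannot be assigned with certainty. Mrpl17 (0.46, adjusted p = 0.0294) and Mrps16 (0.40, adjusted p = 0.0222) rose less, with adjusted p of up to 0.0828 and 0.0821 over the alternatives. Both lost their calls without WT intact library 5, WT ligated library 2 or WT ligated library 6, and in each of these cases 2 members were called higher.

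At the other end, Mrpl12 had 1 of the 2 smallest changes. This stalk protein, which also binds the mitochondrial RNA polymerase, was at 230, 237, 332, 332 and 346 normalised counts in WT intact, 278, 298, 306 and 287 in WT ligated, 302, 348, 347, 325 and 337 in BKO intact and 283, 264, 358.5 and 240 in BKO ligated libraries. The 4 groups overlapped throughout, and no comparison called Mrpl12. Its log2 fold change after ligation was 0.01 in WT (95% interval -0.26 to 0.27). The other was Mrps10, at -0.02 (adjusted p = 0.924).

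**Figure D2:**
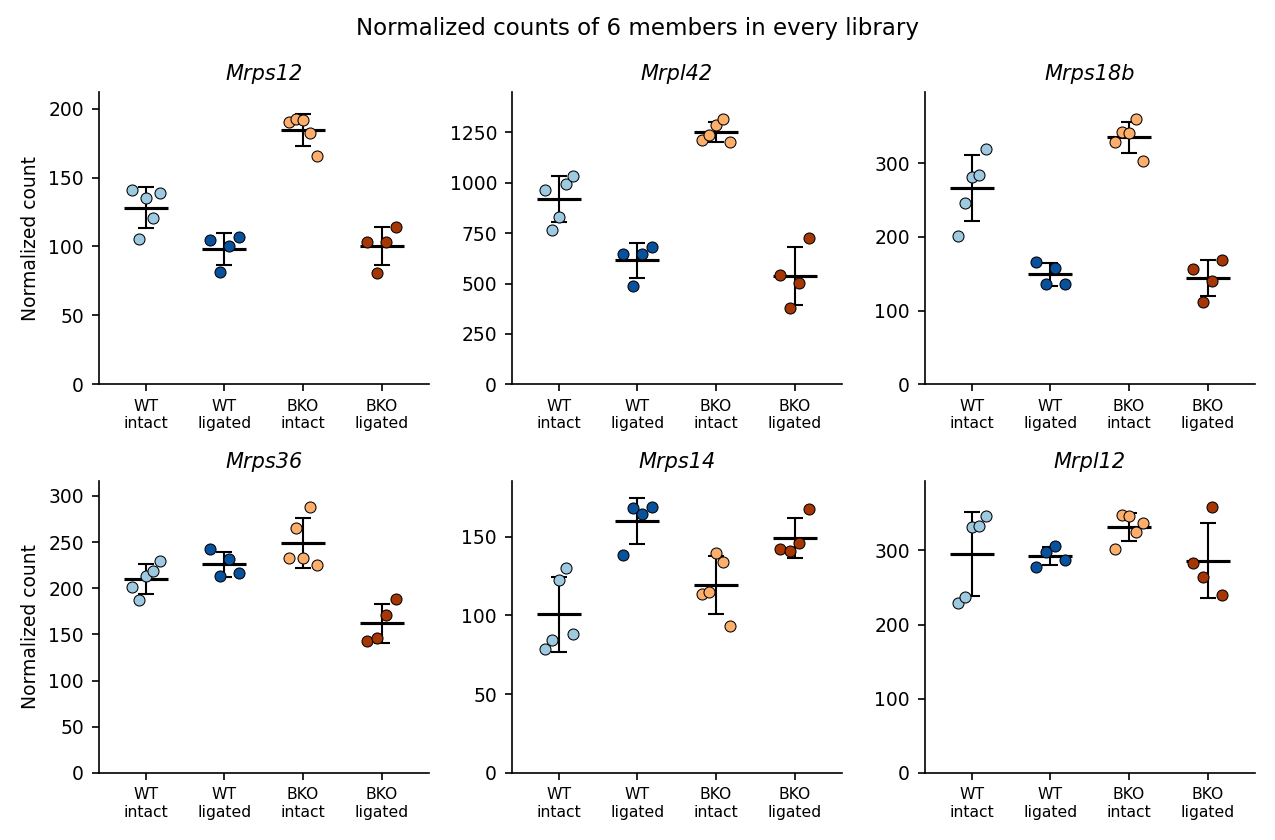
Normalized counts (y axes, linear, from 0) of 6 members in the 4 groups, with points for libraries, lines for means and bars for the SD. Mrps12, Mrpl42 and Mrps18b have their highest values in BKO intact libraries, and Mrps36 its lowest in BKO ligated libraries. Mrps14 is higher in the ligated limbs of both genotypes without overlap, and only its rise in WT passed the test. Mrpl12 overlaps in all groups.

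The second comparison asked the same of the knockout. In BKO, 45 of the 77 members fell in the ligated limb and none rose by the limma fit, where 25.1% of all genes fell and 22.1% rose. The 45 were 58.4% of the members, 27 of the large and 18 of the small subunit. The median log2 fold change was -0.41, nearly the same in both subunits (-0.42 and -0.41), and 72 of 77 values were below 0. At an unadjusted p under 0.05, 2 members were higher, and both edgeR and TMM scaling also called 2 higher, DESeq2 none.

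The largest decrease was that of Mrpl42. In BKO intact libraries Mrpl42 was at 1214.5, 1237, 1288, 1319 and 1204 normalised counts, and in BKO ligated libraries at 544, 378, 501.5 and 728. The highest ligated library was far below the lowest intact one, and the fold was 2.39 (log2 -1.26, SE 0.14, limma adjusted p = 4.97e-07). Mrps18b stood at 329, 342, 341, 361 and 303 in BKO intact and at 157, 112, 141 and 168.5 in BKO ligated libraries, a decrease of 2.33-fold (log2 -1.22, SE 0.13, limma adjusted p = 2.97e-07). Mrpl54 fell from 285, 295, 284.5, 298 and 243 to 136, 146, 158 and 160 (log2 -0.90, SE 0.09, limma adjusted p = 2.17e-07). In neither gene did the groups overlap, and for both the ligated values were close to those of the WT ligated libraries.

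Around the catalytic and decoding centres, Mrpl16 fell by 0.745 (limma adjusted p = 5.63e-06), Mrpl2 by 0.41 (adjusted p = 0.00996) and Mrps12 by 0.88 (adjusted p = 6.61e-06), while Mrpl3 was at -0.26 and did not pass (adjusted p = 0.0872). Mrps12 was at 190, 193, 192, 182.5 and 165 in BKO intact and at 103, 81.0, 103 and 114 in BKO ligated libraries. Those groups were far apart. In the stalk, Mrpl10 fell by 0.87 (adjusted p = 2.32e-05), with an exon of Mrpl10 overlapping Gm11574 on the other strand. Mrpl45, which anchors the ribosome at the inner membrane, fell by 0.655 (adjusted p = 1.28e-05), from 318, 347, 322, 409 and 385 to 208, 221, 239 and 232. Again the groups did not overlap.

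Of the 3 relatives of that bacterial protein, Mrps18a fell by 0.55 (adjusted p = 0.00511) besides Mrps18b, and Mrps18c was at -0.29 (adjusted p = 0.117). Mrpl55, found only in mitochondrial ribosomes, fell by 1.03 (adjusted p = 9.02e-06). Mrpl32 (-0.67), Mrps15 (-0.75) and Mrpl57 (-0.85) fell as well. Among genes in which inherited defects cause human disease, Mrps22 fell by 0.36 (adjusted p = 0.0173), and Mrpl44, an RNase III relative, was at -0.09 (adjusted p = 0.516). The calls of Mrps18a, Mrps22 and Mrpl2 were lost without BKO ligated libraries 4 and 5 (adjusted p of up to 0.234). Members near 0 included Mrpl27 (0.015) and Mrps6 (-0.02).

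Measures of the libraries moved with this result. Reads from mt-Rnr2 made up 33.6% to 36.1% of the total in BKO intact and 43.3%, 51.9%, 55.5% and 40.9% in BKO ligated libraries 2, 4, 5 and 6. Without libraries 4 and 5, 35 members fell and the median was -0.35. Longer transcripts had higher fold changes across all genes (Spearman 0.207 over 12188 genes, a description), and members are short, with a median transcript length of 1226 bases against 2729 for all genes tested. With a length trend taken out of each library, 38 members fell, 2 rose and the median was -0.30. The part of adipocyte, fibroblast, endothelial and macrophage transcripts, given above, was not tested.

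**Figure D3:**
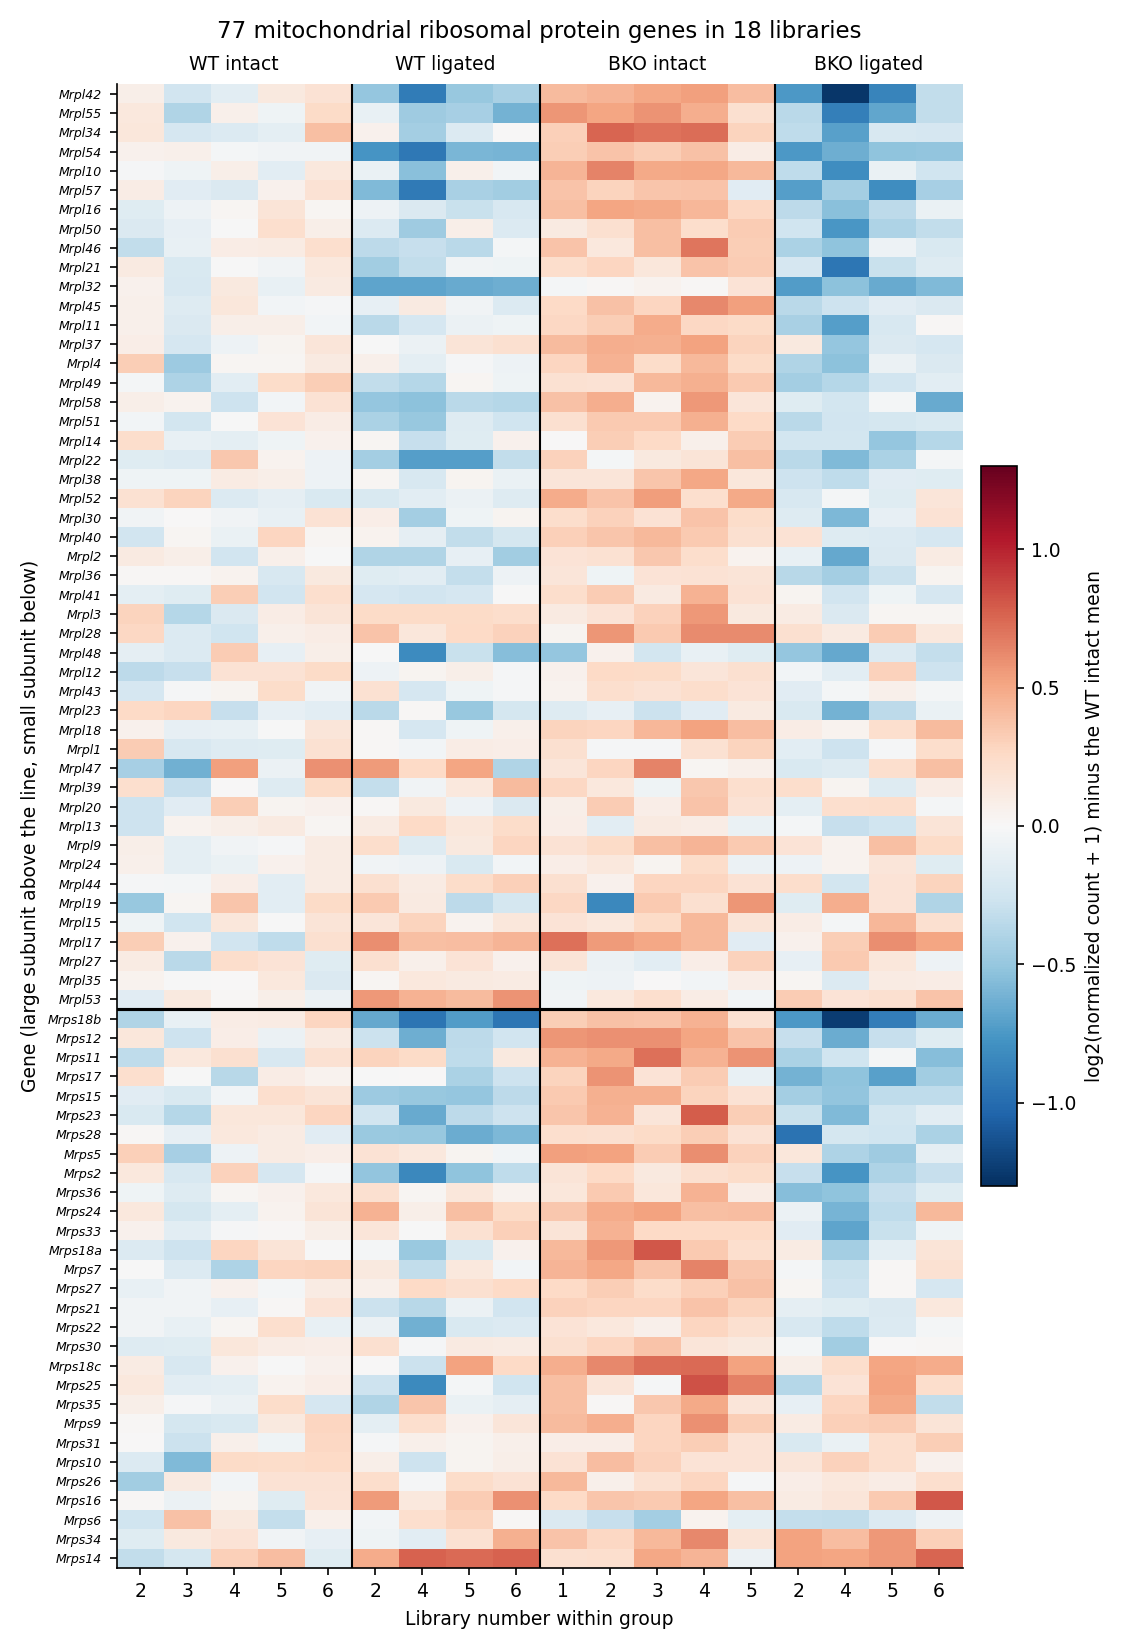
Values of log2(normalized count + 1) minus the gene's WT intact mean for 77 members (rows, large subunit above the line and small subunit below, each ordered by the ligation effect in BKO) in 18 libraries (columns, with their number within the group). Red is above and blue below the WT intact mean; BKO intact columns are mostly red, and blue in the ligated columns is strongest for Mrpl42, Mrpl54 and Mrps18b.

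The difference between these ligation effects was tested as the interaction of genotype and ligation. Here 13 of 77 members had a more negative effect in BKO than in WT and none a more positive one, against 2.97% and 3.04% of all genes. The 13 were 16.9% of the members, 6 of the large and 7 of the small subunit, and the median difference was -0.31. All 13 fell after ligation in BKO, and 10 of them were also called higher in BKO than in WT intact muscle. The median difference of BKO from WT over all members was 0.27 in intact and -0.04 in ligated limbs. The interaction is built from the same 4 groups and is not independent of the other comparisons. Without regard to the test, 73 of 77 members had the lower log2 fold change in BKO, and 25 were above 0 in WT and below 0 in BKO. At an unadjusted p under 0.05 limma had 32 members lower and none higher, and no other tool called a member higher (edgeR 12 lower, DESeq2 17 lower).

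Mrps36 had the smallest p. It was named as a small subunit protein, and later work places it in the oxoglutarate dehydrogenase complex of the citric acid cycle. Mrps36 was at 201, 187, 214, 219 and 230 normalised counts in WT intact and at 242, 213, 232 and 217 in WT ligated libraries. In BKO it was at 233, 265.5, 232, 288 and 225 in intact and at 143, 146, 171 and 188 in ligated libraries. The WT groups overlapped and the BKO groups did not, with log2 fold changes of 0.105 (adjusted p = 0.445) and -0.62 (adjusted p = 5.7e-05) and a difference of -0.72 (SE 0.15, limma adjusted p = 0.00757).

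Mrps27, a pentatricopeptide repeat protein of the small subunit, was at 133, 137, 148, 140 and 152.5 in WT intact and at 148, 169.5, 164.5 and 170.5 in WT ligated libraries. In BKO it was at 169.8, 177, 167, 176 and 185 in intact and at 145, 118, 143 and 121.5 in ligated libraries. Ligation thus separated the BKO groups downwards, and the difference between genotypes was -0.61 (SE 0.13, limma adjusted p = 0.0103). An exon of Mrps27 overlaps 6430562O15Rik on the other strand. Mrps33 was at 146, 128, 139, 142 and 148.5 in WT intact, 156, 140, 161 and 174 in WT ligated, 157, 192, 168, 168 and 169 in BKO intact and 127, 87.1, 114 and 135 in BKO ligated libraries. The difference for Mrps33 was -0.74 (SE 0.16, limma adjusted p = 0.013).

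In the large subunit, Mrpl37 went from 290, 234.5, 260, 280 and 303 to 271, 259, 306 and 315 in WT and from 363, 378, 376, 393.5 and 334 to 298, 193, 239 and 235 in BKO. The WT groups overlapped, the BKO groups did not, and the difference was -0.70 (SE 0.155, limma adjusted p = 0.0129). Mrpl45 was at 277.5, 237, 295, 259 and 263 in WT intact and at 246, 289, 257 and 235 in WT ligated libraries. Its ligation effects of -0.05 in WT and -0.655 in BKO differed by -0.60 (SE 0.13, limma adjusted p = 0.0132).

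The largest difference was that of Mrps11. In WT it was at 47.7, 66.3, 70.0, 52.0 and 69.2 in intact and at 73.7, 71.9, 47.9 and 65.9 in ligated libraries, which overlapped. In BKO it was at 82.7, 85.3, 99.4, 82.9 and 90.7 in intact and at 45.0, 50.3, 59.2 and 40.8 in ligated libraries, which did not. The difference was -0.93 (SE 0.22, limma adjusted p = 0.0184). Mrps11 and Mrpl46 overlap at their 5' ends on opposite strands, exons included. The rest of the 13 were Mrps24 (-0.87, with an exon overlapping Urgcp on the same strand), Mrpl34 (-0.78), Mrps5 (-0.75), Mrpl10 (-0.72), Mrpl42 (-0.68), Mrps17 (-0.66) and Mrpl16 (-0.56), with adjusted p from 0.0211 to 0.0484. Mrpl32 (-0.001) and Mrpl24 (-0.004) had the smallest differences.

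This count was sensitive to single libraries and settings. It was 6 without WT ligated library 2, 7 without BKO ligated library 4, 4 without BKO ligated libraries 4 and 5, and 5 with the length trend taken out, where the median was -0.20. Mrpl45 and Mrps36 passed in all 27 alternatives. The calls of Mrpl42 and Mrpl34 were lost in 17 and 15 of them, and those of Mrpl10 and Mrpl16 in 8 and 5. With the length trend out, Mrps11 (adjusted p = 0.079), Mrps33 (0.0517) and Mrps24 (0.0501) did not pass. Without BKO ligated libraries 4 and 5, Mrpl37 (adjusted p = 0.0705), Mrps33 (0.0625) and Mrps24 (0.138) did not.

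**Figure D4:**
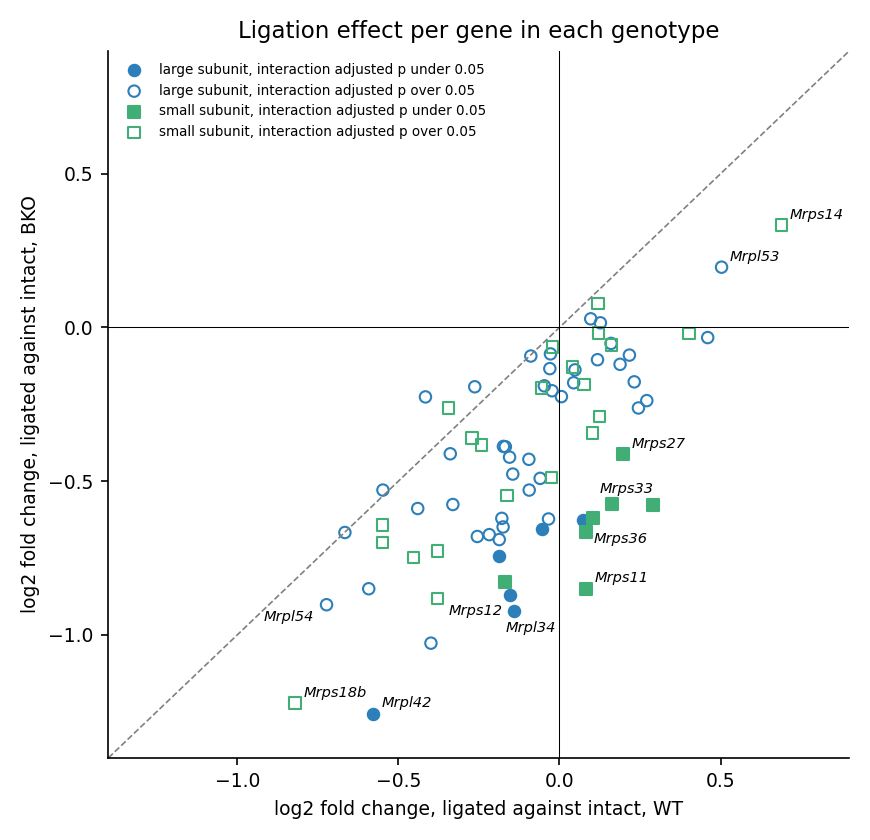
Each point is a member, with the log2 fold change of ligated against intact limbs in WT (x axis) and in BKO (y axis); the dashed line marks equal effects. Circles are large and squares small subunit genes, filled where the interaction passed (13 members), and 73 of 77 points lie below the line.

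Among the members that fell in WT, 16 of 17 also fell in BKO, which is 94.1% of the WT list and 35.6% of the 45 in BKO. Over all genes tested, 1849 of the 2585 that fell in WT also fell in BKO, which is 71.5% of the WT list and 60.1% of the 3077 in BKO. These comparisons share no library, but they use the same estimate of each gene's spread, so their calls are not independent. The exception was Mrpl48, at -0.42 in WT (adjusted p = 0.0344, up to 0.155 over the alternatives) and -0.23 in BKO (adjusted p = 0.232). None of the 4 that rose in WT fell in BKO: Mrps14 was at 0.33 (adjusted p = 0.0743), Mrpl53 at 0.20 (adjusted p = 0.0883), and Mrpl17 and Mrps16 were at -0.03 and -0.02. For Mrps14 every BKO ligated library (141.1 to 167.6 normalised counts) was nevertheless above every BKO intact one (93.3 to 139.8).

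The next comparison set the genotypes side by side in intact limbs. In BKO intact muscle 29 of 77 members were higher than in WT and none lower, against 8.56% and 9.75% of all genes. They were 37.7% of the members, 15 large and 14 small subunit genes. The median difference was 0.27, 73 of 77 values were above 0, and the largest fold was 1.53. At an unadjusted p under 0.05 limma had 45 members higher and none lower, and edgeR and DESeq2 also called none lower. This comparison and that of ligation in BKO share the BKO intact libraries.

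Mrps18c showed the largest difference. It was at 69.7, 55.7, 67.0, 64.5 and 67.2 normalised counts in WT intact and at 89.8, 100.1, 107, 108 and 93.3 in BKO intact libraries. The groups did not overlap and the rise was 0.61 (SE 0.14, limma adjusted p = 0.00362), with an exon shared with Gm43511 on the same strand. Mrps12 had the smallest p: it was at 141, 105, 135, 120 and 138.5 in WT intact, below all BKO intact values given above, and 104.5, 81.4, 100.1 and 107 in WT ligated libraries. The difference between the intact groups was 0.53 (SE 0.11, limma adjusted p = 0.0023). Mrpl34, a relative of a bacterial large subunit protein, was at 123, 94.8, 97.6, 101 and 145.5 in WT intact and at 138, 187.5, 181, 184 and 136 in BKO intact libraries. Here 1 WT library lay within the BKO range, and the difference was 0.56 (SE 0.15, limma adjusted p = 0.0109).

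The differences in Mrpl45 (0.415, adjusted p = 0.00239) and Mrpl37 (0.43, adjusted p = 0.00525) rest on the values printed for the interaction. Mrpl18, the relative of a bacterial protein that binds the smallest rRNA, rose by 0.38 (adjusted p = 0.00325), with an exon overlapping Tcp1 on the other strand. Mrpl16 rose by 0.42, Mrpl10 by 0.50 and Mrpl51 by 0.32, with adjusted p from 0.00357 to 0.00819. Mrpl42 was at 963, 766, 830, 993 and 1036 in WT intact libraries, all below the BKO intact ones, and rose by 0.46 (adjusted p = 0.0181). Mrps18a rose by 0.47 (adjusted p = 0.0229), and Mrps18b was at 0.34 and did not pass (adjusted p = 0.056). Mrpl13 and Mrpl35 were closest to 0, at 0.02 and -0.01.

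With the length trend taken out 16 members were higher, and 19 without WT intact library 3, the WT intact library with the lowest summed level. Across all genes the fold change in this comparison fell with transcript length (Spearman -0.216 over 12188 genes, a description). Mrps12, Mrpl45, Mrpl18, Mrps18c, Mrpl16, Mrpl37, Mrpl10, Mrpl51, Mrpl34 and Mrps27 passed in all 28 alternatives.

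In ligated limbs the genotypes differed in 2 members, both lower in BKO, and none was higher, where 4.68% of all genes were lower and 4.16% higher. The median difference was -0.04. Mrps36 was lower, at -0.485 (SE 0.11, limma adjusted p = 0.00613), with every BKO ligated library below every WT ligated one. Mrps33 was at -0.46 (SE 0.12, limma adjusted p = 0.021), again with no overlap. Without BKO ligated libraries 4 and 5 neither passed, with adjusted p of 0.0547 for Mrps36 and 0.278 for Mrps33. Mrps33 also failed without WT ligated library 2, 5 or 6 or BKO ligated library 4. Mrps25 had the largest difference of any member, 0.49, and did not pass (adjusted p = 0.136); the smallest were those of Mrpl39 (0.001) and Mrpl48 (0.002). At an unadjusted p under 0.05, limma had 3 members higher and 9 lower, and edgeR and DESeq2 called none higher.

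Split by origin, a grouping chosen after the values were seen, the 45 relatives of bacterial proteins and the 31 proteins found only in mitochondrial ribosomes (Mrps36 belongs to neither) had similar counts. After ligation in BKO 24 of 45 and 20 of 31 fell, with medians of -0.39 and -0.42. In BKO intact muscle 17 of 45 and 12 of 31 were higher, with medians of 0.26 and 0.28. Moving Mrps18a and Mrps30, which sit in the large subunit, out of the small one and leaving Mrps36 out gave 29 of 50 large and 15 of 26 small subunit genes lower after ligation in BKO, and 16 of 50 and 13 of 26 higher in BKO intact muscle. In all, 21 of the 77 members passed in no comparison, among them Mrpl12, Mrpl3 and Mrpl44.

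Next to the members, 81 nuclear-encoded subunits of the respiratory chain and 81 cytosolic ribosomal proteins were counted in the same fit. Of the respiratory chain subunits, 38 rose and 9 fell after ligation in WT (median 0.23) and 10 rose and 33 fell in BKO (median -0.16). In BKO intact muscle 72 were higher and none lower (median 0.40), and the interaction was negative in 37 (median -0.44). Of the cytosolic ribosomal proteins, 23 rose and 19 fell after ligation in WT (median 0.02), 8 rose and 39 fell in BKO (median -0.22), 7 were higher in BKO intact muscle (median 0.07) and 12 had a negative interaction (median -0.30). The 7 were 8.64% of the cytosolic set, against 8.56% of all genes tested, and the 39 were 48.1%, against 25.1%. No test of the difference between these sets and the members was made.

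**Figure D5:**
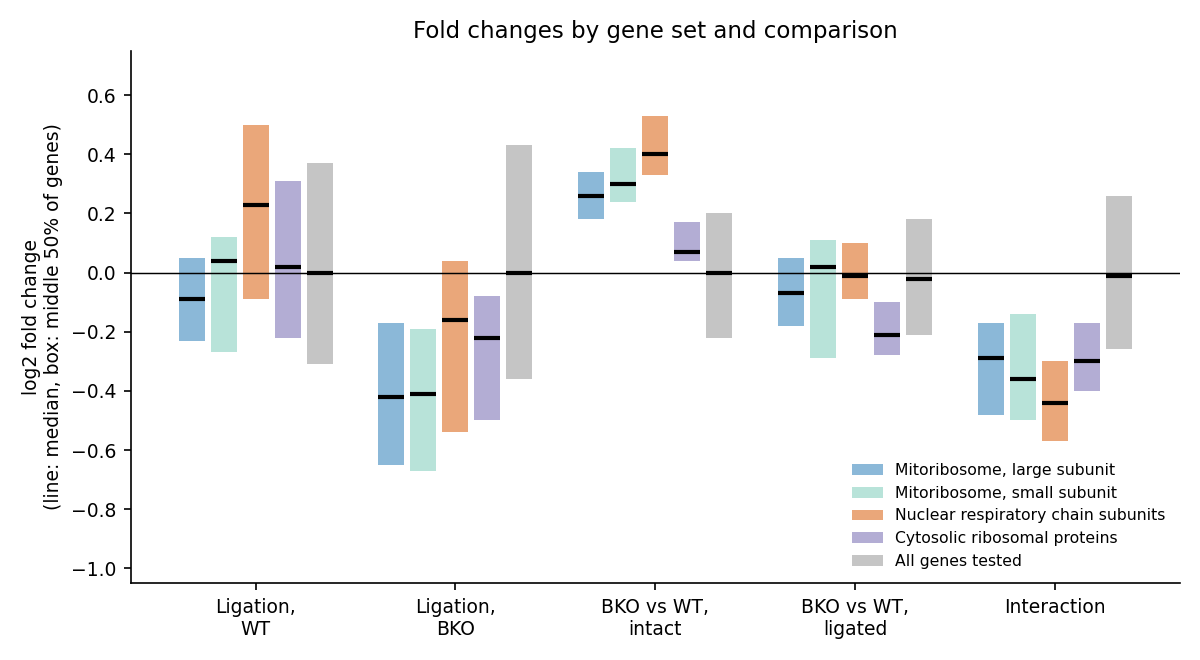
Log2 fold changes (y axis) in the 5 comparisons (x axis) for the large and small subunit members, 81 nuclear respiratory chain subunits, 81 cytosolic ribosomal proteins and all 12262 genes tested. Boxes span the middle 50% of genes and lines mark medians, which for the members are -0.42 and -0.41 after ligation in BKO and 0.26 and 0.30 in BKO intact muscle.

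Within groups the members varied together less than those sets. After removal of group means, the median correlation of a pair of members over the 18 libraries was 0.20, against 0.62 for respiratory chain subunits, 0.52 for cytosolic ribosomal proteins and 0.00 for pairs of all genes. These are descriptions, and the points share libraries and depth. The sets were not matched for expression level, so the lower value of the members cannot be read as weaker coordination.

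Other parts of the mitochondrial translation system were given by fixed lists. The counts of each list stand beside these shares of all genes tested. After ligation 21.1% fell and 18.7% rose in WT, and 25.1% fell and 22.1% rose in BKO. In BKO intact muscle 8.56% were higher and 9.75% lower, and the interaction was negative in 2.97% and positive in 3.04%. Of 5 mitoribosome proteins without an Mrp symbol, 4 fell after ligation in BKO and none in WT, and 2 were higher in BKO intact muscle. Ptcd3, a pentatricopeptide repeat protein of the small subunit, fell by 0.67 after ligation in BKO (SE 0.08, limma adjusted p = 2.21e-06) and was 0.55 higher in BKO intact muscle (adjusted p = 4.31e-05). Its interaction was -0.52 (adjusted p = 0.0148). The list's only call in the interaction was Ptcd3.

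Of 12 translation factors, 3 fell and 1 rose after ligation in WT, 4 fell in BKO and 3 were higher in BKO intact muscle. The elongation factor Gfm1 fell by 0.49 in WT (adjusted p = 0.000166) and by 0.72 in BKO (adjusted p = 1.78e-06). Tufm, which brings aminoacyl-tRNA to the ribosome, rose by 0.30 after ligation in WT (adjusted p = 0.00859) and was 0.55 higher in BKO intact muscle (adjusted p = 6.04e-05), and its interaction was -0.45 (adjusted p = 0.0347).

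Of 27 assembly factors and rRNA modifying enzymes tested, 3 fell after ligation in WT, and in BKO 7 fell and 3 rose. Their median log2 fold change was -0.05 in WT and -0.13 in BKO. In BKO intact muscle 4 were higher and 2 lower, and the interaction was positive in 1 and negative in none. Fastkd2, an RNA-binding protein needed for assembly of the large subunit, fell by 0.92 in BKO (adjusted p = 5.86e-06), and Rbfa, which acts on the small subunit rRNA, by 0.67 (adjusted p = 2.45e-05). Gtpbp6, a recycling and assembly GTPase, rose by 1.13 in BKO (adjusted p = 0.000132), from 14.8 to 22.2 normalised counts in BKO intact to 33.7 to 46.6 in BKO ligated libraries.

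Of 12 genes of mitochondrial transcription and RNA processing, 4 fell after ligation in WT and 6 in BKO, and 3 were higher in BKO intact muscle. Hsd17b10, a subunit of mitochondrial RNase P, fell by 0.59 in BKO (adjusted p = 5.07e-05). The transcription factor Tfb2m fell by 0.66 in WT and 0.64 in BKO (adjusted p = 0.00283 in both).

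Of 10 regulators of nuclear genes for mitochondrial proteins, 2 fell in WT, and in BKO 2 fell and 4 rose. Their median log2 fold change was -0.03 in WT and 0.34 in BKO. Gabpa, the DNA-binding subunit of the factor that reads the ETS core searched in the promoters, fell by 0.87 in WT (adjusted p = 4.06e-05) and 0.60 in BKO (adjusted p = 0.0012). The coactivator Ppargc1a fell by 0.95 in WT (adjusted p = 0.000273) and by 1.29 in BKO (adjusted p = 7.94e-06). Other regulators went the other way in BKO. Gabpb2 was at 156 to 196 normalised counts in BKO intact and at 203 to 268 in BKO ligated libraries. Ppargc1b was at 86.4 to 179 in BKO intact and at 183 to 244 in BKO ligated libraries. Gabpb1 and Pprc1 had higher means in BKO ligated than in BKO intact libraries, with overlapping ranges. No regulator was higher in BKO intact muscle, where Pprc1 (-0.79, adjusted p = 0.018) and Myc (-0.71, adjusted p = 0.0221) were lower. Of 14 genes of mitochondrial import and content, 4 fell after ligation in WT, 10 fell and 1 (Vdac1, at 0.23) rose in BKO, and 6 were higher and 1 lower in BKO intact muscle.

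Of the 15 products of the mitochondrial genome listed, mt-Co2 was listed at 0 in every WT intact library, where mt-Co1 was at 573751 to 712095 normalised counts, and it was left out. Of the other 14, 9 fell and none rose after ligation in WT, and 7 fell and 4 rose in BKO. Listed levels were low for mt-Co3 and mt-Nd4l too, at 683 to 1793 and 611 to 1438 in BKO intact libraries. In BKO ligated libraries they were at 3215 to 5868 and 1465 to 5395. Changes at such low listed levels are uncertain. By contrast, mt-Co1 was at 555563 to 656183 in BKO intact and at 316030 to 381763 in BKO ligated libraries. The 2 rRNAs of the ribosome itself rose in BKO, mt-Rnr2 by 0.64 (adjusted p = 0.0198) and mt-Rnr1 by 0.46 (adjusted p = 0.0378), while 45 members, Mrps36 among them, fell. The groups overlapped for mt-Rnr1, at 1017019 to 1252779 normalised counts in BKO intact and 1058021 to 2257004 in BKO ligated libraries. For mt-Rnr2 they did not, at 5983613 to 7102125 and 7355312 to 14516570. In BKO intact muscle 5 products of the mitochondrial genome were lower and none higher, among them mt-Nd5 (-0.99, adjusted p = 0.00013), while 29 members were higher. Whether removal of rRNA during library preparation differed between libraries was not tested.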

How the data were processed

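Total RNA of TA muscle was made into libraries with a kit that keeps the strand, per the labels' protocols, and the submitters' processing notes name Trimmomatic 0.33, STAR 2.5.2, RSEM 1.3.3, DESeq2 and the mm10 build. The sources used here do not give the strand setting, the annotation or the version of DESeq2. The deposited table holds, per gene and library, a signal made by the authors, the read count divided by 1 size factor per library, with no correction for length. Multiplied by the recovered size factor, 100% of the values were whole within 0.001. These reads (14089381 to 25629204 per library) served the count tools.

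Of 20922 gene identifiers, 20643 had a symbol in GENCODE M21. Genes with a mean of at least 10 over the 18 libraries were kept, 12262 in all. limma 3.58.1 (R 4.3.3) was fitted with an intensity trend to log2(normalised count + 1), with 1 mean per group over the 4 groups, and p-values were adjusted by Benjamini-Hochberg over all 12262 genes, with a threshold of 0.05. Fold changes are on this scale and understate those of low genes. The fit was tested on simulated counts with changes set in the BKO ligated group only. No transcript length trend or shift in mt-Rnr2 reads was set, so that test does not bear on calls that depend on these. Each comparison used all 18 libraries for the spread.

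Alternatives were pseudocounts of 0.5 and 10, no filter, TMM scaling and the quasi-likelihood test (edgeR 4.0.16), DESeq2 1.42.0, the compared groups alone, the replicate number as a block, a transcript length trend taken out of each library, each library left out in turn and, added after seeing the data, BKO ligated libraries 4 and 5 left out. Members named are, per comparison and direction, the 8 with the smallest p among those that passed, the 2 with the largest and the 2 with the smallest change, the 5 highest and 3 lowest per kb, and members with a stated role; members beyond these were named after their values were seen. The members and the gene lists were chosen with earlier results of these data known. Promoters came from RefSeq (GRCm38.p6) and transcript lengths and exon overlaps from GENCODE M21.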

Additional observations from a re-analysis of the deposited data

Results flagged for a closer look

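In WT ligated library 4, the summed level of all members was 12609 normalised counts, while the other WT ligated libraries held 13908 to 13974. The library also lay apart for the large subunit (8512, the others 9380 to 9409) and for the small subunit (4097, the others 4528 to 4565). For single members, Mrpl54 was at 243.3 in BKO intact library 5, the others of that group at 284.5 to 298.0, and Mrps14 was at 138.5 in WT ligated library 2, the others at 164.5 to 168.8. These 5 came from 76 groups of values tested for a library far from the rest, and chance alone marks about 1 in 20 such groups.

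The response to ligation differed between BKO and WT by the test of the interaction (limma, Benjamini-Hochberg adjusted p under 0.05) in 13 members. The differences in log2 fold change were -0.72 for Mrps36, -0.61 for Mrps27, -0.70 for Mrpl37, -0.74 for Mrps33, -0.60 for Mrpl45, -0.93 for Mrps11 and -0.87 for Mrps24. They were -0.56 for Mrpl16, -0.75 for Mrps5, -0.72 for Mrpl10, -0.78 for Mrpl34, -0.68 for Mrpl42 and -0.66 for Mrps17.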

How the results depend on the processing

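The count of members lower after ligation in BKO stayed within 1.5 times of 45 in each alternative run (35 to 46), and its median log2 fold change stayed below 0. It moved most, to -0.30, with the length trend taken out, and 2 members then rose, as they did with TMM scaling and with edgeR's test. After ligation in WT, leaving out 1 library at a time gave 2 to 6 members higher and 11 to 17 lower. In BKO it gave 0 to 1 higher and 41 to 46 lower. In BKO against WT intact limbs it gave 19 to 32 members higher, and taking out the length trend 16. In ligated limbs it gave 0 to 1 higher and 1 to 4 lower; the compared groups alone gave 1 lower, the length trend 1 higher, and without BKO ligated libraries 4 and 5 there were 0 lower. The interaction had 6 to 19 members lower with a library left out and 5 with the length trend out (median -0.20). It had 4 without BKO ligated libraries 4 and 5, and 5 with the replicate block. Members that did not pass under the block included Mrps27 (limma adjusted p = 0.0763), Mrpl37 (0.0823), Mrps11 (0.0934), Mrpl10, Mrpl16 and Mrpl34. Replicate numbers are shared by intact and ligated libraries, but same-numbered libraries did not deviate together (correlations from -0.0638 to 0.0478), so the numbers were not used as pairs, though the labels do not say whether a number marks an animal; the block gave 3 higher and 16 lower after ligation in WT, 45 lower in BKO and 29 higher in BKO intact muscle. Of 77 calls of named members, 44 held in every alternative and 33 were lost in at least 1. Why these counts move was not tested. Depth limits the lowest members most: Mrps6 had as few as 21 reads in a library.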
